A study of Homo sapiens with 8 samples.

Results

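The 6 transcripts of DNA mismatch repair followed here, MSH6, MSH3, MLH3, PMS1, PMS2 and EXO1, were measured through 8 RNA libraries of NALM6, a long-established line of human leukemic B-cell precursors. The 6 genes were named by their function, out of 23621 gene rows in the table, and the set was selected on a measured value: MSH6 in replicate B of the WT cells. All 6 genes were in the table and all 6 passed the minimum mean level of 1 FPKM that left 11042 genes for testing. FPKM gives fragments for each kilobase of a transcript relative to all mapped fragments, so levels can be set side by side between genes.

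All libraries came from NALM6 cells with a doxycycline-inducible HMGN1, a nucleosome-binding protein encoded on chromosome 21. The groups, of 2 libraries each, were SE DOX, SE vehicle, WT DOX and WT vehicle. SE cells carried HMGN1 with the S20,24E exchange, which is deficient in nucleosome binding, and WT cells carried wild-type HMGN1. DOX libraries came from cells given doxycycline at 100 ng/ml for 6 hours, and vehicle libraries from cells given the vehicle for the same time. Each group held a biological replicate A and a biological replicate B by its labels. The sources used here do not state how the replicates were separated (clone, transduction or passage), so p-values measure only the spread between these libraries. Nor do they link a letter in SE to the same letter in WT.

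Mismatch repair removes bases that DNA polymerases misincorporate, and the small loops left when they slip on repeats. MutS dimers find the error. Those that hold MSH6 see single mismatches and short loops, while those that hold MSH3 see mainly larger loops. MutL dimers, which hold PMS2, PMS1 or MLH3, are then recruited. The PMS2 and MLH3 forms are endonucleases, and the part of PMS1 in human cells is less clear. EXO1 is an exonuclease that degrades the strand with the error before it is resynthesised. In acute lymphoblastic leukemia, low mismatch repair is known for its link to thiopurine tolerance.

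The promoters of MSH6 and MSH3 are shown because these genes encode the alternative partners within MutS dimers, and MSH6 was low in WT replicate B while MSH3 was not. RefSeq sequences of GRCh38.p14 matched all 6 genes, and the 250 bases before the first listed start are printed in lower case with GC boxes (GGGCGG on either strand, overlapping matches counted) in capitals. The MSH6 window lies at chr2:47782895-47783144 on the plus strand and the MSH3 window at chr5:80654402-80654651 on the plus strand. The deposited values were made on hg19, so these coordinates belong to the printed sequence only.
MSH6: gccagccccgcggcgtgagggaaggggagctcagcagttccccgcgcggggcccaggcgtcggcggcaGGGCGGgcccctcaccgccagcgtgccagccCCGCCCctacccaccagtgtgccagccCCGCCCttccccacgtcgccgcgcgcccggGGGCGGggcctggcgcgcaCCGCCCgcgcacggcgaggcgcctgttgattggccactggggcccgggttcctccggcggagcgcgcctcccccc
MSH3: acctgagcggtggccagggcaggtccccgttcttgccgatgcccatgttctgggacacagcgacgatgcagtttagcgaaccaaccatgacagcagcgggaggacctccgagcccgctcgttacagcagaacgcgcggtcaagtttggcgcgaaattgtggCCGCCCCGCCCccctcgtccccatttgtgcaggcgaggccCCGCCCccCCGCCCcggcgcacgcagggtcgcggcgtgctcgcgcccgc
The MSH6 window held 5 GC boxes and the MSH3 window 4. Among the other members PMS2 had 2, PMS1 and EXO1 had 1 each, and MLH3 had 0. Of 27305 windows of this length, 42.3% held at least 1 GC box, 7.82% at least 4 and 4.2% at least 5. A match is a run of letters, not a shown binding site, and no measurement was made on the promoters here.

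The libraries expressed the B-lineage markers, with 12 of 12 at a mean of at least 1 FPKM, whereas 0 of 6 erythroid, 1 of 8 T-lineage (LCK) and 2 of 7 myeloid markers (LYZ and CD33) reached it. HMGN1 did not stand above its vehicle level in any DOX library. It stood at 1061 (B) and 1421 (A) FPKM in SE DOX and at 1066 (B) and 1427 (A) in SE vehicle. The WT values were 795 (B) and 793 (A) FPKM in WT DOX and 796 (B) and 809 (A) in WT vehicle. Spike-in RNAs made up 0.719% to 1.06% of the summed FPKM in SE libraries and 0.531% to 0.569% in WT libraries. Read counts are not part of the files, so the depth behind each value is unknown.

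MSH6 had 2 levels. In the SE libraries it was 36.5 (B) and 30.9 (A) FPKM with DOX, and 37.5 (B) and 32.1 (A) FPKM with vehicle. In the WT libraries it was 7.90 (B) and 36.6 (A) FPKM with DOX, and 7.70 (B) and 36.3 (A) FPKM with vehicle. Both libraries of WT replicate B stood apart, and the other 6 libraries lay between 30.9 and 37.5 FPKM, a spread of 1.21-fold. Within WT replicate B the DOX and vehicle values differed by 1.03-fold, and within WT replicate A by 1.01-fold.

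MSH6 in WT replicate B was thus 4.64-fold lower than in WT replicate A with DOX and 4.71-fold lower with vehicle. That is 21.6% and 21.2% of the level in replicate A. The working name of a loss of MSH6 goes further than the values: the transcript was low and not absent, and at 7.70 to 7.90 FPKM it lay close to MSH3, at 7.06 to 7.53 FPKM in the same libraries. The ratio of MSH6 to MSH3 was 1.05 (DOX) and 1.09 (vehicle) in WT replicate B, against 4.94 and 5.22 in WT replicate A. In the SE libraries it ran from 4.69 to 5.67. In bulk RNA, fewer cells with the transcript and less transcript in every cell cannot be told apart. The row counts a whole gene, so isoforms were not resolved either.

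**Figure D1:**
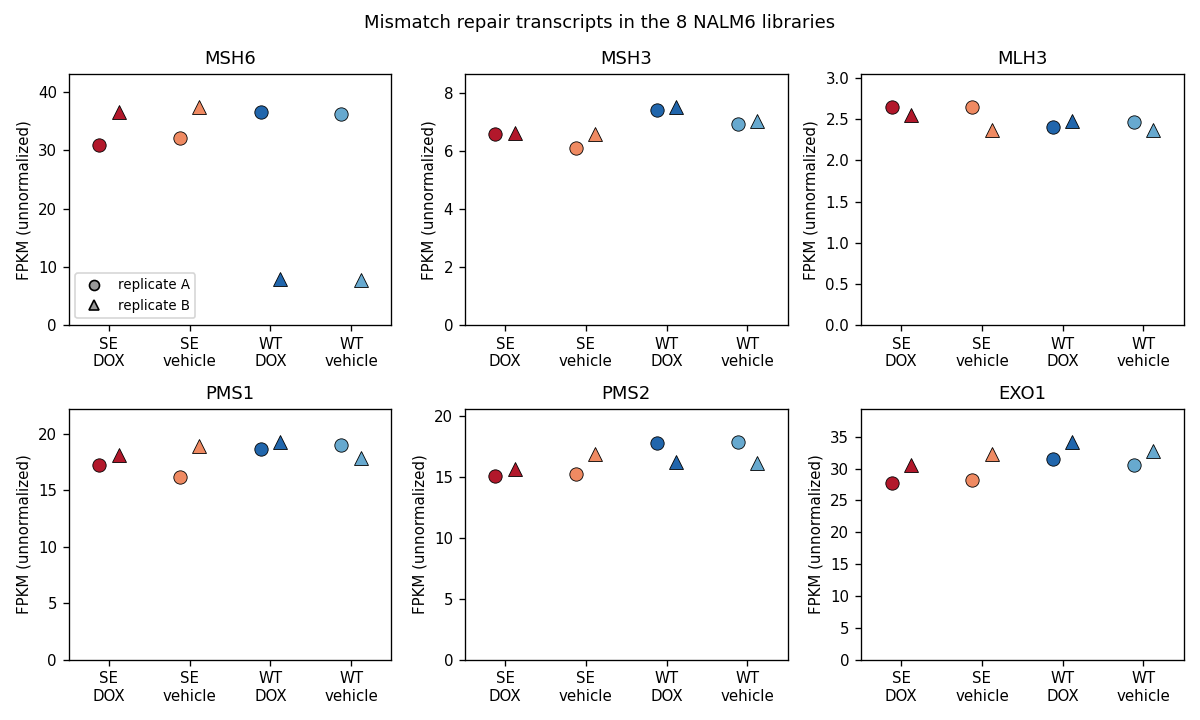
Unnormalized FPKM of the 6 mismatch repair genes (vertical axes, from 0) in SE DOX, SE vehicle, WT DOX and WT vehicle, with circles for replicate A and triangles for replicate B. MSH6 is at 7.70 and 7.90 FPKM in both WT libraries of replicate B and at 30.9 to 37.5 FPKM elsewhere. EXO1 is slightly higher in these libraries, at 32.7 to 34.2 FPKM against 27.7 to 32.3 FPKM elsewhere. MSH3, MLH3, PMS1 and PMS2 show no level apart in them.

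The other 5 genes did not share this drop. Because the set was chosen for this contrast, the following ratios of WT replicate B to WT replicate A are a description and no test was made on them. MSH3, the alternative partner of the MutS dimer, was 7.53 (B) and 7.41 (A) FPKM in WT DOX, and 7.06 (B) and 6.95 (A) in WT vehicle. Its log2 ratio was 0.02 in each treatment. Here B lay above A in both treatments, by less than the distance between DOX and vehicle.

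EXO1, the exonuclease, was 34.2 (B) and 31.5 (A) FPKM in WT DOX and 32.7 (B) and 30.6 (A) in WT vehicle. The log2 ratios were 0.12 and 0.10, so that EXO1 lay higher where MSH6 was low on the unnormalized scale, and lower on the spike-in scale, at -0.12. PMS2, the main endonuclease subunit of MutL, was 16.2 (B) and 17.8 (A) FPKM in WT DOX and 16.2 (B) and 17.9 (A) in WT vehicle. Both ratios were below 0, at -0.13 and -0.15, the largest falls among these 5 genes in this contrast, and their size is a small part of the MSH6 value. PMS1 was 19.3 (B) and 18.7 (A) FPKM in WT DOX and 17.9 (B) and 19.0 (A) in WT vehicle, with log2 ratios of 0.05 and -0.09 that differed in sign between the treatments. MLH3, which serves repair and meiotic crossing over, was the least abundant member, at 2.48 (B) and 2.41 (A) FPKM in WT DOX and 2.37 (B) and 2.47 (A) in WT vehicle. Its ratios, 0.04 and -0.06, also changed sign.

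For comparison, the mean log2 ratio of MSH6 over both treatments was -2.21, and 5% of the 11042 genes lay below -0.41 and 5% above 0.35. At adjusted p under 0.05 in limma, 50.0% of all genes were called in this contrast, and nothing is read from it for the members. The test treats DOX and vehicle libraries of a replicate as repeats, so this share is set against the spread within a replicate only. The summed FPKM of the 5 genes without MSH6 was 79.7 (B) and 77.8 (A) in WT DOX and 76.2 (B) and 76.9 (A) in WT vehicle. On the spike-in-normalized scale all genes moved together by a median of -0.22, and the ratios of the 5 genes, between -0.12 for EXO1 and -0.36 for PMS2, lay around that shift, while MSH6 was at -2.42.

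PMS2 has close copies, between which reads can be divided, so its value is uncertain. Over the 8 libraries PMS2 ran from 15.1 to 17.9 FPKM. The rows of its copies PMS2CL and PMS2P1 lay near it, at 15.7 to 16.6 and 12.8 to 16.8 FPKM. The other 4 copy rows lay below it, at 11.2 to 12.1 FPKM for PMS2P3, 8.31 to 10.9 for PMS2L2, 6.74 to 7.85 for PMS2P5 and 6.53 to 8.58 for PMS2P4.

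**Figure D2:**
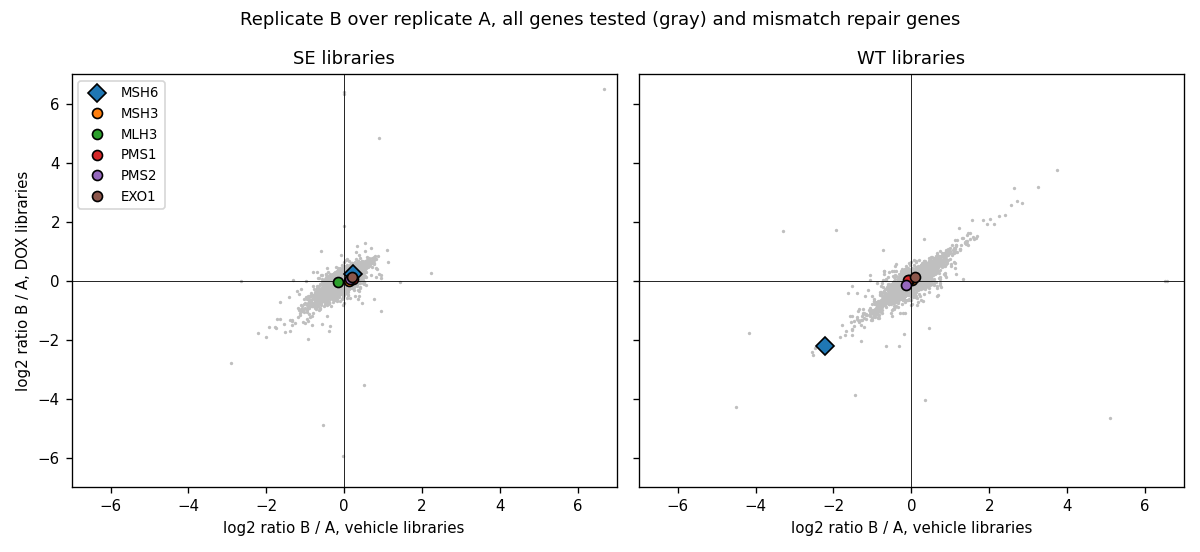
Log2 ratio of replicate B to replicate A in vehicle libraries (horizontal) and in DOX libraries (vertical), for SE (left) and WT (right), with each gray point 1 of the 11042 genes tested and coloured symbols the mismatch repair genes. In WT, MSH6 lies at -2.22 and -2.20, away from the other 5 genes near 0. In SE it lies at 0.22 and 0.24.

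Few genes were as low. In the WT libraries 5 of the 11042 genes had a log2 ratio of B to A of -2 or less in both treatments, MSH6 among them, and 9 had a ratio of 2 or more. The other 4, named after their values were seen, were PRPS2, IGJ, LSP1 and TMPRSS3. LSP1, a leukocyte actin-binding protein, was also lower in SE replicate B, at -1.75 (DOX) and -2.23 (vehicle). TMPRSS3, at -0.82 and -0.96, and PRPS2, at -0.40 and -0.38, were lower there too, in DOX and vehicle. IGJ had 0.66 (DOX) and 0.00 (vehicle) in SE, and MSH6 was higher in both.

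The 5 genes whose pattern over the 8 libraries was most like that of MSH6, by Pearson r of log2(FPKM + 0.1) among 404 genes with a range of at least 1 on that scale, were PRPS2, CPT1A, ABHD4, RPP30 and OAS1. Their r ran from 0.945 to 0.984 over 8 libraries, and all 5 were low in the same pair of WT libraries as MSH6. The r is a description of 8 libraries that share these 2. PRPS2, a phosphoribosyl pyrophosphate synthetase that feeds purine synthesis, was 0.0797 (B) and 3.39 (A) FPKM in WT DOX and 0.0761 (B) and 3.87 (A) in WT vehicle, against 2.24 to 3.04 FPKM in the SE libraries. CPT1A, the carnitine palmitoyltransferase of the mitochondrial outer membrane, was 2.75 (B) and 7.45 (A) FPKM in WT DOX and 2.64 (B) and 6.88 (A) in WT vehicle. RPP30, a subunit of ribonuclease P, was 2.27-fold lower in B with DOX and 2.42-fold lower with vehicle.

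The 4 neighbours of MSH6 that were expressed enough to be tested did not share the drop. Of the coding genes within 5 places on each side in the RefSeq order, 4 of those described were tested: CALM2 before MSH6, and FBXO11, FOXN2 and PPP1R21 after it. FBXO11, a ubiquitin ligase subunit that directly follows and overlaps MSH6, was 15.0 (B) and 13.2 (A) FPKM in WT DOX and 15.2 (B) and 13.3 (A) in WT vehicle. Its level was higher in B in both treatments, with log2 ratios of 0.18 and 0.20. Whether the counting used strand is not stated, so reads from the overlap may be divided between FBXO11 and MSH6. FOXN2, a forkhead factor, had 0.12 and 0.06, PPP1R21 had 0.03 and 0.09, and CALM2, a calmodulin gene, had 0.19 and 0.23. All 8 ratios were above 0 in the unnormalized table. On the spike-in scale, where the median of all genes was -0.22, the means of these 4 genes ran from -0.17 to -0.03. KCNK12 and EPCAM, which lie before MSH6, were listed at 0 in all libraries. STON1 did not exceed 0.311 FPKM and STON1-GTF2A1L did not exceed 0.0279 FPKM, so a drop could not be seen in these 4.

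**Figure D3:**
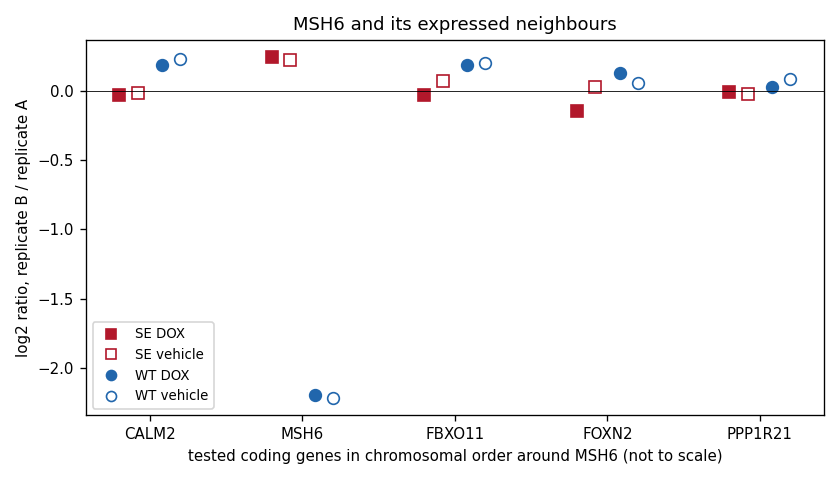
Log2 ratio of replicate B to replicate A (vertical axis) for MSH6 and its tested coding neighbours, in chromosomal order and not to scale. Squares are SE and circles WT libraries, filled for DOX and open for vehicle. MSH6 in WT lies at -2.20 and -2.22, and the 8 WT points of the neighbours lie between 0.03 and 0.23.

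Replicates B and A of the SE cells, which the choice of the set did not use, show how these genes vary between replicates. MSH6 was higher in SE replicate B, by 0.23 on the log2 scale (standard error 0.03, limma adjusted p = 0.000384), with 36.5 and 37.5 FPKM in B and 30.9 and 32.1 FPKM in A. EXO1 was higher by 0.16 (standard error 0.04, limma adjusted p = 0.00487), at 30.5 and 32.3 FPKM in B and 27.7 and 28.3 FPKM in A. PMS1 was higher by 0.15 (standard error 0.05, limma adjusted p = 0.022), at 18.2 and 18.9 FPKM in B and 16.2 and 17.2 FPKM in A. PMS2 (0.10), MSH3 (0.06) and MLH3 (-0.10, against 0.14 on the spike-in scale) had limma adjusted p of 0.0647, 0.419 and 0.263. PMS2 was called without SE DOX replicate B (0.15, limma adjusted p = 0.0173). In each of the 6 genes, called or not, the SE libraries of B and A did not overlap, with B lower in MLH3 and higher in the other 5. In MSH3 the gap was only that from 6.595 FPKM (A) to 6.601 FPKM (B). The share of all genes that separate in this way was not counted, so nothing is read from it for the members.

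Thus 3 of 6 members were called, all higher, where limma called 44.3% of the 11042 genes, 3000 higher and 1894 lower. The members' share is near that background. The test treats DOX and vehicle libraries of a replicate as repeats, so its p-values cover the spread within a replicate only. On the spike-in scale, where all genes moved by a median of 0.27, MSH6 was at 0.48 (adjusted p = 0.0269), whereas EXO1 (adjusted p = 0.0506) and PMS1 (adjusted p = 0.0545) were not called. PMS1 was also not called without SE vehicle replicate A (0.11, adjusted p = 0.155) or without SE vehicle replicate B (0.12, adjusted p = 0.121). Without a filter on low values neither EXO1 (adjusted p = 0.0519) nor PMS1 (adjusted p = 0.131) was called.

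Genes of the later steps of mismatch repair were mostly higher in SE replicate B too. Of 15 genes for the clamp, its loader, the single-strand binding protein, polymerase delta, the ligase and HMGB1, 13 were higher and 1 lower, with a median log2 ratio of 0.17 against 0.02 over all genes. The counts of each list stand against the 44.3% called among all genes, 3000 of 11042 higher and 1894 lower. Calls numbered 1857 on the spike-in scale, 1748 of them higher, and the lists were counted on the unnormalized scale alone. POLD1, the catalytic subunit of polymerase delta, had 0.26 and RFC5, a clamp loader subunit, had 0.19, and POLD4 was the lowest of the list at -0.41. Of 20 S-phase genes 17 were higher and 0 lower, with a median of 0.19. MCM4, a subunit of the replicative helicase, had 0.34 and RRM1, of ribonucleotide reductase, had 0.29. Base excision repair genes were higher in 9 of 15 and lower in 2, with NTHL1, a glycosylase for oxidised pyrimidines, at 0.55 and UNG, the uracil glycosylase, at 0.23. Genes of thiopurine and alkylation response were higher in 8 of 11 and lower in 2, with IMPDH2 at 0.32. Genes of H3K36 methylation, the mark that the MSH6 protein reads, had 1 of 7 higher (WHSC1, 0.10), and SETD2, which writes its trimethyl form, had -0.08 and was the lowest of the list.

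The same lists stood near 0 in the contrast of WT replicate B to A, again given without a test. The median log2 ratio was -0.02 for the 15 resynthesis genes, between -0.34 for RPA3, of the single-strand binding protein, and 0.25 for PCNA, the clamp. It was -0.01 for S-phase genes, from CCNE1 (-0.55) to TYMS (0.23). Base excision genes had a median of -0.06, and NEIL1, another glycosylase, was higher in B at 1.14. Thiopurine and alkylation genes had a median of 0.04, and H3K36 methylation genes 0.04. MSH5, a MutS homolog of meiosis that takes no part in repair of replication errors, had a mean of 0.00 there. Its ratios differed in sign, at -0.09 (DOX) and 0.10 (vehicle). MSH4 did not exceed 0.154 FPKM in any library. MSH5 overlaps the read-through row MSH5-SAPCD1, between which reads can be divided.

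Some markers differed between WT replicates B and A. The summed T-lineage list, nearly all LCK, a kinase also seen in B-cell leukemia, was 6.50 to 6.83 FPKM in WT replicate B and 2.97 to 3.10 FPKM in WT replicate A, with CD3G, CD2, CD7 and TRAT1 listed at 0 in all libraries. The myeloid list summed to 2.51 to 2.60 FPKM in WT replicate B and 5.30 to 5.58 FPKM in WT replicate A, with 2 of 7 markers above the minimum and ELANE listed at 0 throughout. LYZ was lower in B, with log2 ratios of -1.19 (DOX) and -1.51 (vehicle), whereas CD33 had -0.80 (DOX) and 0.16 (vehicle) and MPO 0.05 and 0.15. The sums of the SE libraries follow, and the labels do not link their letters to those of WT. The T-lineage sum was 3.94 to 4.02 FPKM in SE replicate B and 3.30 to 3.31 FPKM in SE replicate A. The myeloid sum was 2.98 to 3.29 FPKM in SE replicate B and 3.84 to 4.10 FPKM in SE replicate A. The part of these markers in the MSH6 difference was not tested. The B-lineage sum was 3303 to 3373 FPKM in WT replicate B and 3362 to 3366 FPKM in WT replicate A. Single B-lineage genes differed within that sum, with mean log2 ratios of 0.85 for DNTT, 0.56 for RAG1, 0.36 for EBF1 and -0.38 for TCL1A. CD24 (-0.27), CD79B (-0.23) and CD79A (-0.12) were lower too, and the median of the 12 markers was 0.14. The part of these genes was not tested either.

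No difference between DOX and vehicle passed the test in any of the 6 genes in either construct. The fit had no term for the replicate, so its intervals and p-values also take in the spread between replicates B and A. That spread is partly shared: across genes the B to A ratios in DOX and vehicle correlated at 0.72 in SE and 0.757 in WT. With a replicate block, 0 genes were called in these comparisons as well. In SE, limma called 0% of the 11042 genes in DOX against vehicle, with 12 at an unadjusted p under 0.05, and 0 of the 6 members. The log2 fold changes were 0.06 for MSH3 (95% interval -0.12 to 0.24), 0.05 for MLH3 (-0.22 to 0.33), 0.02 for PMS1 (-0.19 to 0.23), -0.06 for PMS2 (-0.27 to 0.14) and -0.05 for EXO1 (-0.27 to 0.17), each with adjusted p = 1. In WT, limma called 0% again, with 13 genes at an unadjusted p under 0.05, and the 5 fold changes ran from -0.0013 for PMS2 to 0.09 for MSH3 (interval -0.09 to 0.27), each with adjusted p = 1. MSH3 was higher with DOX in each replicate of each construct, by 0.01 (B) and 0.11 (A) in SE and by 0.09 (B) and 0.09 (A) in WT, on the unnormalized scale. On the spike-in scale it was lower with DOX in both SE replicates, at -0.14 (B) and -0.23 (A), where all genes had a median of -0.24.

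For MSH6 the group test says little, since each WT group held a low and a high library: 22.3 ± 20.3 FPKM in WT DOX and 22.0 ± 20.2 FPKM in WT vehicle (SD, n = 2 each). The fold change was 0.03 with an interval of -1.93 to 1.98. Within a replicate, DOX minus vehicle was 0.04 (B) and 0.01 (A) in WT and -0.04 (B) and -0.06 (A) in SE on the log2 scale. The difference between the DOX effects, SE minus WT, called 0% of genes in limma, with 9 at an unadjusted p under 0.05, and ran from -0.11 for EXO1 (interval -0.42 to 0.20) to 0.04 for MLH3 (-0.35 to 0.43) over the members, each with adjusted p = 1.

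Between the constructs, the means of the other 5 genes were mostly a little lower in SE, and none passed the test. Libraries of the same letter are set against each other next, though the labels do not link the letters of SE and WT. In vehicle PMS1 and PMS2 were lower in SE in replicate A alone. SE minus WT there was -0.23 (A) and 0.08 (B) for PMS1, and -0.23 (A) and 0.06 (B) for PMS2. With DOX both genes were lower in SE in each replicate. limma called 0.0906% of genes in vehicle and 0.0725% in DOX, and 0 of the 5. MSH3 had the lowest adjusted p in each treatment. It was 6.61 ± 0.02 FPKM in SE DOX and 7.47 ± 0.08 in WT DOX, and 6.35 ± 0.35 FPKM in SE vehicle and 7.01 ± 0.08 in WT vehicle (SD, n = 2 each). The SE libraries, at 6.10 to 6.63 FPKM, did not overlap the WT libraries, at 6.95 to 7.53 FPKM, yet the log2 fold changes of -0.17 (standard error 0.08, limma adjusted p = 0.702) in DOX and -0.14 (standard error 0.08, limma adjusted p = 0.654) in vehicle did not pass. The share of all genes whose SE and WT libraries separate in this way was not counted, so nothing is read from it for MSH3. On the spike-in scale MSH3 was called in DOX, at -0.68 (limma adjusted p = 0.0486), where the median of all genes was -0.53. EXO1 had -0.17 in DOX and -0.07 in vehicle, PMS2 -0.14 and -0.08, PMS1 -0.10 and -0.08, and MLH3 0.09 and 0.05 (-0.43 and -0.26 on the spike-in scale), with limma adjusted p of 0.715 to 0.892 over these 8 values.

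**Figure D4:**
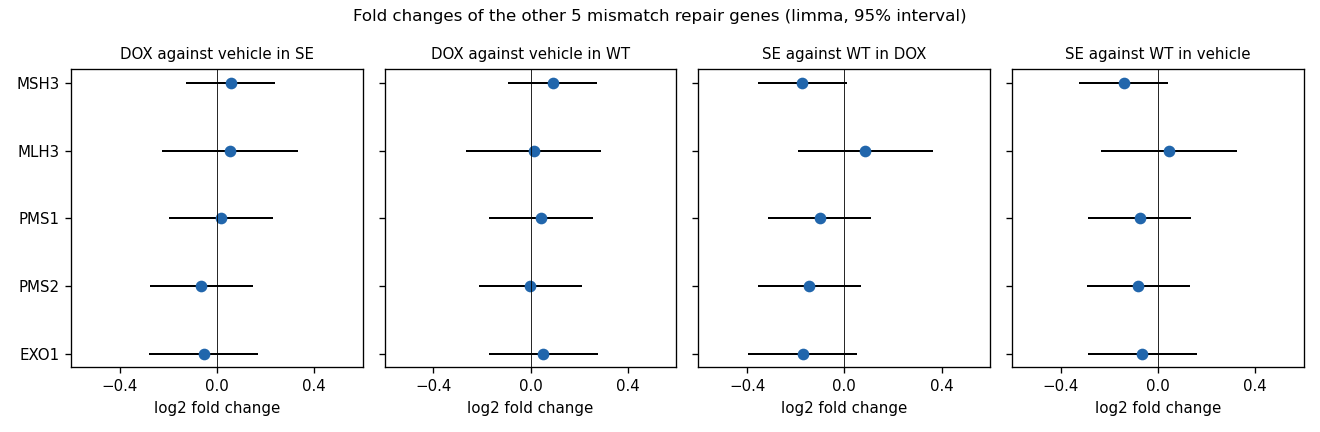
Log2 fold changes (horizontal axis) of MSH3, MLH3, PMS1, PMS2 and EXO1 in 4 comparisons, on log2(unnormalized FPKM + 0.1), with limma's 95% intervals as lines. All 20 intervals include 0. The fit had no term for the replicate, so the intervals also take in the spread between replicates B and A.

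MSH6 between the constructs depends on the low replicate that chose it and is given without a test. SE minus WT was 2.20 (B) and -0.25 (A) with DOX and 2.27 (B) and -0.17 (A) with vehicle, so replicate A went the other way. This pairing is by letter alone, which the labels do not link between the constructs. With both WT libraries of replicate B left out, the fold change was -0.12 in DOX and -0.06 in vehicle.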

How the data were processed

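Levels were measured by RNA-seq of poly(A) RNA in 8 NALM6 libraries with ERCC spike-ins. The authors deposited FPKM in 2 tables, 1 unnormalized and 1 normalized. HISAT, Cufflinks 2.0.0 and hg19 are named in the submitters' processing notes. How the values were normalized is not stated in the labels, and the normalized spike-in sum was 7050 to 7166 in every library. Low values above 0 stand at no less than 0.01 in the unnormalized table, and depth is unknown.

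log2(unnormalized FPKM + 0.1) was fitted in limma 3.58.1 (R 4.3.3, trend on) to 4 group means, leaving out 92 spike-ins, genes with a mean under 1 and 298 rows with small RNA names. Replicate B against A was fitted to 4 means of construct and letter. Benjamini-Hochberg adjustment ran over 11042 genes, threshold 0.05. The fit was tested on simulated data.

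The members, the 11 other lists and the rules were chosen with earlier results of these data known. Named genes are the members, up to 3 called genes of smallest p per list, coding neighbours of MSH6 and the 5 genes most like it. Other genes are named outside this rule: extremes and other members of a list, markers at 0, HMGN1, copies and read-through rows, and genes picked once the values were known. A gene selected by the rules is not reported here. Alternatives were the normalized table, equal library medians, a pseudocount of 1, no filter, small RNA names kept, only the groups compared, a replicate block and leaving out each library. Leaving out both WT libraries of replicate B was added after seeing the data, as were the other tables and pseudocount for the WT ratio.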

Additional observations from a re-analysis of the deposited data

Results flagged for a closer look

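Replicate B minus A of MSH6 had opposite signs in the constructs, higher in SE and lower in WT, in both treatments, and the difference was 2.44 on the log2 scale. For PMS2 the same difference was 0.238. Neither difference was tested, since the set was chosen on the WT replicates. The labels do not link the letters of SE to those of WT, so the signs and sizes of both differences depend on how the replicates were lettered.

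DOX minus vehicle of MSH6 was below 0 in both SE replicates and above 0 in both WT replicates, a difference of -0.0717 on the unnormalized scale. On the spike-in scale the median of all genes for DOX against vehicle was -0.24 in SE and -0.03 in WT. There both WT values of MSH6 were below 0 as well, at -0.0125 (B) and -0.0073 (A). EXO1 showed the same split of signs, with a difference of -0.107, and kept it on the spike-in scale. In limma the adjusted p for the difference of the DOX effects was 1 for each.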

How the results depend on the processing

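The set of 5 genes other than MSH6 passed no DOX or SE against WT test under any alternative run except MSH3 in DOX on the spike-in scale. The cause of the shifts listed next was not tested. On the spike-in scale the DOX fold changes in SE were -0.181 for MSH3, -0.186 for MLH3 and -0.224 for PMS1. Those in WT were -0.00988 for MSH6 and -0.00906 for MLH3. On that scale MLH3 was at -0.177 in the difference of the DOX effects, -0.256 in SE against WT with vehicle, -0.433 with DOX and 0.136 in SE replicate B against A. The WT ratio of MSH6 was -2.42 on that scale and -2.09 with a pseudocount of 1. Without both WT libraries of replicate B, the DOX fold changes in WT were -0.0366 for MLH3 and -0.0241 for PMS1, PMS1 was at 0.0411 in the difference, and MSH6 in SE against WT was -0.125 in DOX and -0.0637 in vehicle.

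Counts of genes called, 0 in DOX against vehicle in either construct and in the difference, were 1 (SE) and 1 (difference) on the spike-in scale. Without a filter on low values they were 51 (SE), 38 (WT) and 71 (difference), and with small RNA names kept 6, 5 and 5. For SE against WT, 8 were called in DOX and 10 in vehicle. The spike-in scale gave 520 and 55, no filter 91 and 77, and leaving out both WT libraries of replicate B 40 and 46. Small RNA names gave 20 in vehicle. SE replicate B against A had 4894 calls, and 1857 on the spike-in scale.

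With a replicate block the counts were 15 in DOX and 17 in vehicle for SE against WT, and 0 for the 3 DOX tests. The block changed no call of a member. MSH6 in DOX against vehicle then had a standard error of 0.0331 in each construct. The labels do not say that a letter marks a shared culture. Across genes the B to A ratios in DOX and vehicle correlated at 0.72 in SE and 0.757 in WT.

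Leaving out 1 library at a time gave 5 to 7 calls for SE against WT in DOX, 4 to 8 in vehicle and 3496 to 5226 for SE replicate B against A. DOX in SE then ran from -0.167 to 0.0737 for MSH6, -0.0241 to 0.13 for MLH3, -0.0938 to 0.128 for PMS1, -0.136 to 0.00755 for PMS2 and -0.151 to 0.0416 for EXO1. DOX in WT ran from -1.09 to 1.14 for MSH6, -0.0173 to 0.0412 for MLH3, -0.000912 to 0.0865 for PMS1, -0.0742 to 0.0715 for PMS2 and -0.00753 to 0.112 for EXO1. The difference ran from -1.18 to 1.04 for MSH6, -0.089 to 0.0222 for MSH3, -0.036 to 0.118 for MLH3, -0.137 to 0.0849 for PMS1 and -0.136 to 0.00986 for PMS2. SE against WT ran from -0.125 to 2.08 for MSH6 in DOX. In vehicle it ran from -0.0637 to 2.16 for MSH6, -0.0308 to 0.123 for MLH3, -0.186 to 0.0353 for PMS1 and -0.161 to 0.0311 for EXO1. With 2 libraries a group and no block, the 95% interval reached 0.249 on either side in the median gene for DOX, SE and WT contrasts. It is wider or narrower for single genes.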
